A study of Homo sapiens with 18 samples.

Results

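Ribosome footprints pulled down through a FLAG tag (IP-Ribo) were compared with total ribosome footprints (Ribo) in human pluripotent stem cells (hPSC). The cells were MEL1, an established human embryonic stem cell line, here the INSGFP/W line with a GFP reporter in the insulin gene. They were grown on Matrigel in mTeSR+ and carried the genotype RPL22-FLAG in both library types, so the cells of the total footprints had the tagged ribosomal protein too. All 4 libraries of these kinds were taken, 2 of hPSC IP-Ribo and 2 of hPSC Ribo, out of 18 libraries in 9 groups. The 2 libraries each of IP-Ribo and Ribo from RPL22-FLAG definitive endoderm (DE, the germ layer that gives rise to gut and pancreas) made from the same line stand beside them, as do 2 RNA-seq libraries of RPL22-FLAG hPSC. Per the labels' protocol, lysates were made without cycloheximide, digested with RNase I, and passed over beads with anti-FLAG M2 antibody only after digestion. That protocol is written for sorted GFP+ cells. It does not say how hPSC were taken, whether the IP-Ribo and Ribo libraries of one number came from the same lysate, whether replicates were separate cultures, or whether the tagged cells are 1 clone. P-values therefore measure the spread between these libraries, which may be technical. No pull-down from cells without the tag was analysed here.

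In ribosome profiling, RNase trims RNA that is not covered by a ribosome, and the fragments that remain are sequenced. A total footprint library holds every RNA fragment of the right size that survives, whether a cytosolic ribosome, a mitochondrial ribosome or another protein complex covered it. RPL22 is a protein of the large subunit of the cytosolic ribosome. It is not a part of the mitochondrial ribosome, which has its own proteins and its own rRNAs, nor of spliceosomal, nucleolar, Y RNA or Argonaute particles. Pulling down RPL22-FLAG after digestion thus asks which of the fragments come with tagged cytosolic ribosomes. Most genes did not pass the test between the library types. The differences fell on RNA classes: mitochondrially encoded RNAs, small noncoding RNAs and long noncoding RNAs were lower in hPSC IP-Ribo, while the bulk of nuclear protein-coding genes lay close to no change.

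MicroRNA genes were among the features that were lower. MicroRNAs are short RNAs that Argonaute proteins carry to mRNAs through a seed, bases 2 to 8 from the 5′ end. The sequences are shown because 11 of the tested microRNA genes fall into a pair of seed groups known for pluripotent and dividing cells. The first group has the seed AAGUGCU and holds the miR-302 cluster, a hallmark of human pluripotent cells, and its relatives miR-372 and miR-373. The seed is in capitals, and the sequences are the mature forms in RefSeq on GRCh38.p14.
hsa-miR-302a-3p: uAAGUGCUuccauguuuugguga
hsa-miR-302b-3p: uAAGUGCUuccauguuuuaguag
hsa-miR-302c-3p: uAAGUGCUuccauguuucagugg
hsa-miR-302d-3p: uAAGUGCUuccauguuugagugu
hsa-miR-372-3p: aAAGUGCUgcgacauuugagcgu
hsa-miR-373-3p: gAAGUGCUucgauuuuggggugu

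The second group has the same letters shifted by a base, AAAGUGC, and holds members of the miR-17 family, which is linked to proliferation.
hsa-miR-17-5p: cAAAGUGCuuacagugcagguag
hsa-miR-20a-5p: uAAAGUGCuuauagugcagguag
hsa-miR-20b-5p: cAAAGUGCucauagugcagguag
hsa-miR-93-5p: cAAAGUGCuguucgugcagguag
hsa-miR-106b-5p: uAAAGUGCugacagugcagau
The miR-302 forms lie on the minus strand of chromosome 4, from chr4:112648006-112648028 for miR-302d-3p to chr4:112648489-112648511 for miR-302b-3p. That is within MIR302CHG, their host gene (chr4:112646720-112650051). MiR-372-3p lies at chr19:53787931-53787953 and miR-373-3p at chr19:53788748-53788770, both on the plus strand. MiR-17-5p (chr13:91350618-91350640) and miR-20a-5p (chr13:91351072-91351094) lie on the plus strand in MIR17HG. MiR-93-5p (chr7:100093815-100093837) and miR-106b-5p (chr7:100094043-100094063) lie on the minus strand inside MCM7, and miR-20b-5p lies at chrX:134169850-134169872 on the minus strand. The counts are per gene, so the arms of a hairpin cannot be told apart.

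The 4 hPSC footprint libraries held 20.57 and 23.11 M counts (M, 1e6) in IP-Ribo and 22.29 and 26.4 M counts in Ribo. The Spearman correlation over genes between replicates was 0.973 in hPSC IP-Ribo and 0.978 in hPSC Ribo. Pluripotency markers identified the cells: the summed CPM (counts per 1e6 counts) of 8 markers was 3840 and 4640 in hPSC IP-Ribo and 3870 and 3370 in hPSC Ribo. The summed CPM of 7 DE markers was 7.83 and 6.14 in hPSC IP-Ribo and 7.31 and 4.43 in hPSC Ribo. The 6 mesoderm and ectoderm markers summed to 2.63 and 1.82 in hPSC IP-Ribo and to 2.69 and 1.36 CPM in hPSC Ribo. The 10 markers of other cells summed to 11.2 and 12.9 in hPSC IP-Ribo and to 7 and 5.87 CPM in hPSC Ribo, with GCG and INS at 0.

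Nuclear protein-coding genes held 90.58% and 90.56% of the counts in hPSC IP-Ribo, against 80.43% and 81.95% in hPSC Ribo. The widest gap by ratio was that of mitochondrial rRNAs and tRNAs, which held 0.3193% and 0.1944% in hPSC IP-Ribo and 3.815% and 3.58% in hPSC Ribo. Their mean share was 14.4 times as high in hPSC Ribo as in hPSC IP-Ribo. Mitochondrially encoded mRNAs held 0.001541% (95% Wilson interval 0.001381 to 0.001721) and 0.001164% (0.001033 to 0.001312) in hPSC IP-Ribo, against 0.01302% (0.01255 to 0.0135) and 0.01581% (0.01533 to 0.01629) in hPSC Ribo. These shares rest on 317 and 269 counts in hPSC IP-Ribo and on 2902 and 4173 counts in hPSC Ribo. In all these classes both IP-Ribo libraries lay on the same side of both Ribo libraries. Wilson intervals of the other shares named here reach at most 4.37% of the share to either side, and all intervals cover counting error only.

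Small and long noncoding RNAs followed. Long noncoding RNAs held 0.4073% and 0.4607% in hPSC IP-Ribo and 1.457% and 1.599% in hPSC Ribo. SNHG1 alone gave 18492 of 83767 and 25860 of 106479 long noncoding counts in hPSC IP-Ribo, and 111135 of 324757 and 194875 of 422024 in hPSC Ribo. Small nucleolar and Cajal body RNAs (snoRNA and scaRNA) held 0.5803% and 0.9466% in hPSC IP-Ribo and 2.823% and 1.863% in hPSC Ribo. MicroRNA genes held 0.03555% and 0.02444% in hPSC IP-Ribo and 0.1036% and 0.09725% in hPSC Ribo. A single gene, MIR4426, gave 4125 of 7311 and 3959 of 5648 microRNA counts in hPSC IP-Ribo. In hPSC Ribo it gave 7370 of 23090 and 12232 of 25674. The groups did not overlap in these 3 classes, and the mean shares in hPSC Ribo were 3.52, 3.07 and 3.35 times those in hPSC IP-Ribo.

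Small nuclear RNAs (snRNAs) were closer, with 1.432% and 0.6567% in hPSC IP-Ribo and 1.467% and 1.942% in hPSC Ribo. Pseudogenes overlapped between the groups, with 4.455% and 4.866% in hPSC IP-Ribo and 4.809% and 4.059% in hPSC Ribo. Nuclear-encoded rRNA held 0.1162% and 0.1827% in hPSC IP-Ribo and 1.027% and 0.08055% in hPSC Ribo, so that the 2 Ribo libraries stood on either side of the IP-Ribo libraries. Features with no symbol held 2.042% and 2.082% in hPSC IP-Ribo and 3.982% and 4.755% in hPSC Ribo. With 2 libraries a group an exact permutation test cannot go below p = 0.333, so no test of a share is given.

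**Figure D1:**
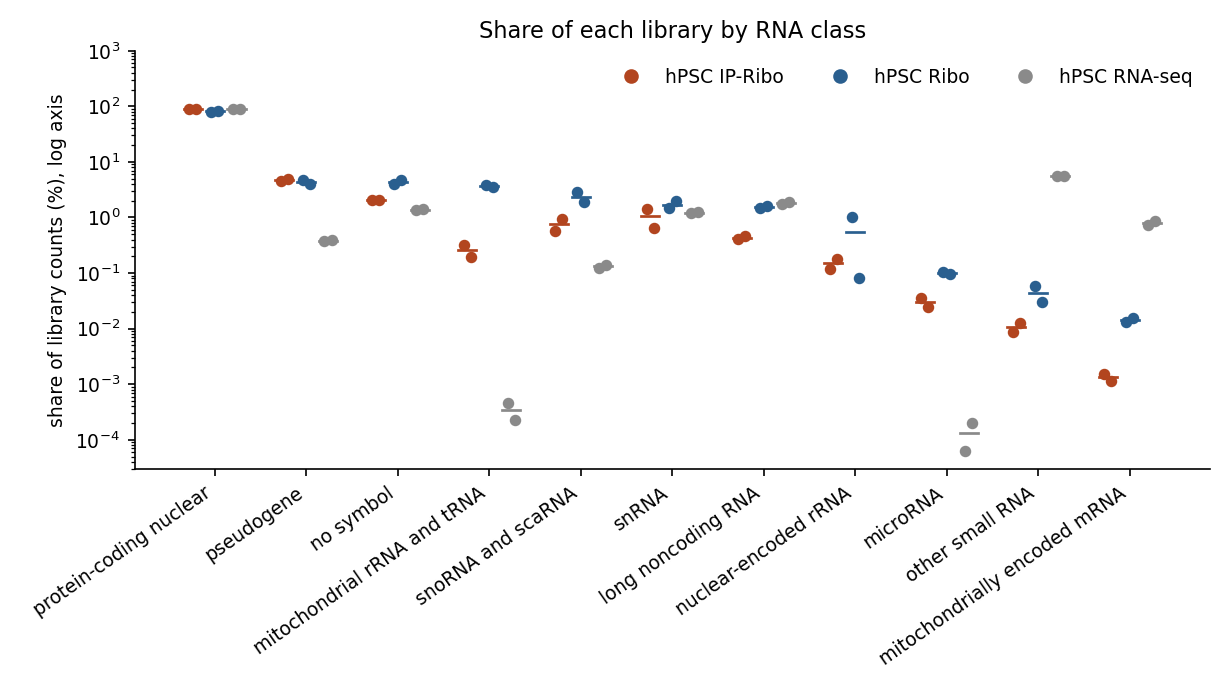
Share of all counts (%, log axis) held by each RNA class in each library of hPSC IP-Ribo, hPSC Ribo and hPSC RNA-seq; points are libraries and short lines are means of 2. Protein-coding genes are at 90.58% and 90.56% in IP-Ribo and at 80.43% and 81.95% in Ribo, and the mitochondrial classes show the widest gap between the footprint types. The RNA-seq shares of nuclear-encoded rRNA lie below the axis.

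Of 57808 genes in the table, 14612 had enough counts to be tested with edgeR's quasi-likelihood test, and 803 (5.5%) were past an adjusted p of 0.05. Of these, 659 (4.51% of those tested) were lower and 144 (0.985%) were higher in hPSC IP-Ribo. The median log2 fold change of IP-Ribo over Ribo was -0.01 over all tested genes. Groups of a gene did not overlap where both libraries of a type lay above both of the other. With 2 libraries a group, an exact permutation test of that cannot go below p = 0.333. The share of all tested genes without overlap is not given here, so non-overlap below is description and no support for a gene that did not pass. The number called was 477 without hPSC Ribo replicate 1 and 434 without hPSC Ribo replicate 2. In hPSC IP-Ribo 58 of the lower genes had no count in either library, and 25 of the higher genes had none in hPSC Ribo.

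The calls were spread unevenly over the classes. Among typed noncoding and mitochondrial genes 226 of 763 tested (29.6%) were lower and 4 were higher, with a median log2 fold change of -1.67. Among nuclear protein-coding genes 240 of 12190 tested (1.97%) were lower and 63 (0.517%) were higher, with a median of 0.02 and an interquartile range from -0.29 to 0.26. Leaving out a library reduced the lower protein-coding genes to between 74 (without hPSC Ribo replicate 2) and 143 (without hPSC IP-Ribo replicate 1), and the higher ones to between 15 and 59. DESeq2 called 363 lower and 359 higher protein-coding genes, so that the balance of directions among them depended on the tool. Read against the 4.51% of all genes that were lower, 92.3% of mitochondrially encoded mRNAs, 76.5% of mitochondrial rRNAs and tRNAs, 42.1% of snoRNAs and scaRNAs, 41.8% of microRNA genes, 40.7% of snRNAs and 21.2% of long noncoding RNAs were lower.

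**Figure D2:**
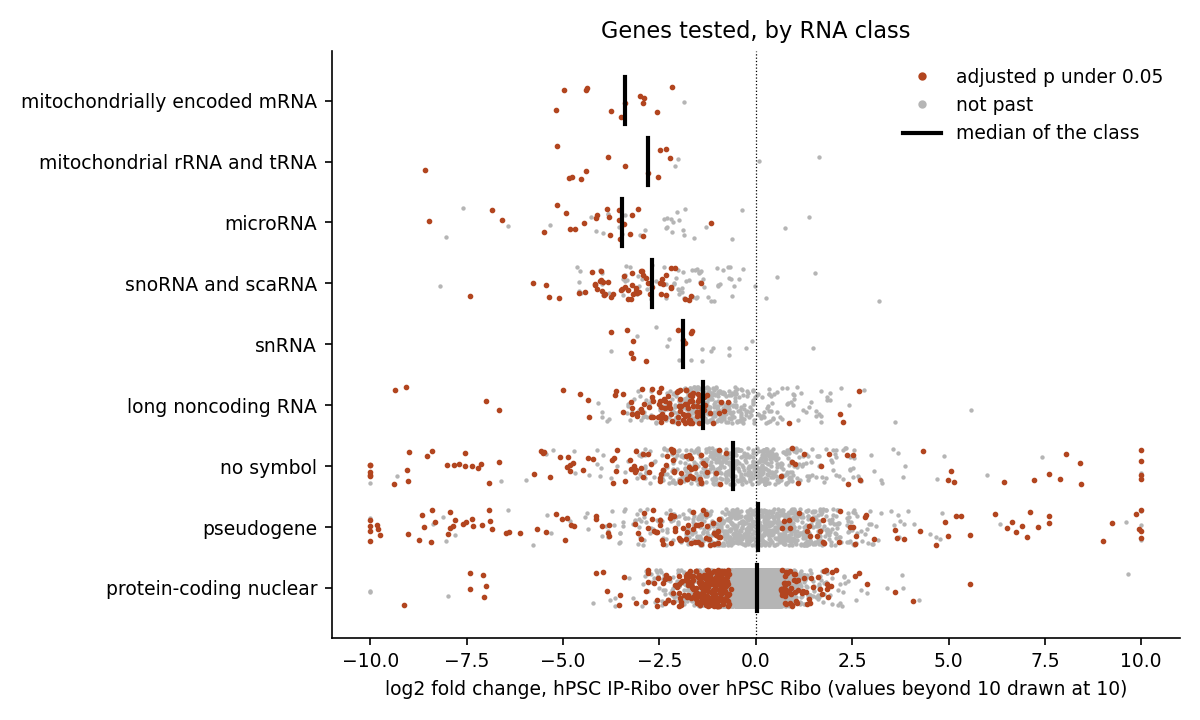
Log2 fold change of hPSC IP-Ribo over hPSC Ribo for each tested gene, by RNA class, with genes past an adjusted p of 0.05 in red, a black line at the class median, and values past 10 in either direction drawn at the edge; genes with no count in a group stand at a fitted value that is no bound. Protein-coding genes centre on a median of 0.02, whereas the medians of mitochondrially encoded mRNAs (-3.4), microRNA genes (-3.48) and snoRNAs and scaRNAs (-2.7) lie well to the lower side.

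The mitochondrial genome encodes 13 proteins of the respiratory chain, and mitochondrial ribosomes translate them inside the organelle. Of these 13 mRNAs 12 were lower in hPSC IP-Ribo, and the median log2 fold change of the 13 was -3.4 with an interquartile range from -4.38 to -2.91. MT-CO1, the catalytic subunit of complex IV (chromosome MT, 5904 to 7445), had 5.69 and 3.57 CPM in hPSC IP-Ribo and 58.6 and 67.2 CPM in hPSC Ribo. CPM here and below are TMM-normalised unless they are said to be from RNA-seq. The groups were far apart, and MT-CO1 was 13.6-fold lower (log2 fold change -3.77, SE 0.25, adjusted p = 0.000905). In RNA-seq MT-CO1 stood at 2021 and 2476 CPM, among the abundant mRNAs of the cells.

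The other subunits of complex IV behaved alike. MT-CO2 had 1.29 and 1.13 CPM in hPSC IP-Ribo and 11.5 and 15.8 CPM in hPSC Ribo (log2 fold change -3.49, adjusted p = 0.00123). MT-CO3 had 0.813 and 0.546 CPM in hPSC IP-Ribo and 12.6 and 16.2 CPM in hPSC Ribo (log2 fold change -4.41, adjusted p = 0.000884). MT-CYB, the cytochrome b of complex III, had 0.909 and 0.757 CPM in hPSC IP-Ribo and 6.06 and 6.61 CPM in hPSC Ribo (log2 fold change -2.92, adjusted p = 0.00304). All 3 stayed past the threshold with any 1 library left out, as did MT-CO1.

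The ATP synthase subunits MT-ATP6 and MT-ATP8 had log2 fold changes of -4.38 (adjusted p = 0.00415) and -4.99 (adjusted p = 0.0157). They lost the call without some libraries: MT-ATP6 reached an adjusted p of 0.0717 without hPSC IP-Ribo replicate 2, and MT-ATP8 reached 0.154 without hPSC Ribo replicate 2. MT-ATP8 rests on few counts, at 0.0478 and 0.0841 CPM in hPSC IP-Ribo and 1.21 and 3.35 CPM in hPSC Ribo. Complex I subunits showed the widest range. MT-ND3 was the lowest of them, with 0.0478 and 0.126 CPM in hPSC IP-Ribo and 2.69 and 4.1 CPM in hPSC Ribo (log2 fold change -5.17, SE 0.55, adjusted p = 0.00424). MT-ND6, which is transcribed from the other strand than the rest, had 0.383 and 0.799 CPM in hPSC IP-Ribo and 6.29 and 6.41 CPM in hPSC Ribo (log2 fold change -3.4, adjusted p = 0.00464). MT-ND5 had a log2 fold change of -2.99 (adjusted p = 0.00507), and both MT-ND5 and MT-ND6 were called with any 1 library left out.

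The remaining complex I genes were nearer the threshold. MT-ND1 (log2 fold change -2.55), MT-ND2 (-2.18) and MT-ND4L (-2.91) were past the threshold, but without hPSC Ribo replicate 2 their adjusted p-values were 0.0608, 0.079 and 0.144. MT-ND4 did not pass, with 1.39 and 0.967 CPM in hPSC IP-Ribo and 2.78 and 5.77 CPM in hPSC Ribo (log2 fold change -1.87, SE 0.44, adjusted p = 0.0596). Its groups did not overlap all the same. In RNA-seq MT-ND4 stood at 1279 and 1499 CPM.

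The rRNAs of the mitochondrial ribosome were lower as well. MT-RNR2, the rRNA of the large mitochondrial subunit (chromosome MT, 1671 to 3229), had 1801 and 885 CPM in hPSC IP-Ribo and 30539 and 32200 CPM in hPSC Ribo. It was 23.4-fold lower (log2 fold change -4.55, SE 0.40, adjusted p = 0.00712) and made up most of the mitochondrial counts of hPSC Ribo. MT-RNR1, the rRNA of the small subunit, had 1290 and 977 CPM in hPSC IP-Ribo and 7438 and 5186 CPM in hPSC Ribo. It was 5.57-fold lower (log2 fold change -2.48, SE 0.25, adjusted p = 0.00365), a smaller difference than that of MT-RNR2, though the 2 were not tested against each other. Both were called with any 1 library left out.

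Mitochondrial tRNAs carry amino acids to that ribosome, and 11 of the 15 tested were lower. MT-TM, the tRNA for methionine, had 3.3 and 3.45 CPM in hPSC IP-Ribo and 77.9 and 65.3 CPM in hPSC Ribo (log2 fold change -4.4, SE 0.18, adjusted p = 0.000237). MT-TE, the tRNA for glutamate, had 5.36 and 4.79 CPM in hPSC IP-Ribo and 30.6 and 28 CPM in hPSC Ribo (log2 fold change -2.53, adjusted p = 0.000905). MT-TT, the tRNA for threonine, had 0.478 and 0.42 CPM in hPSC IP-Ribo and 15.2 and 17.1 CPM in hPSC Ribo (log2 fold change -5.15, adjusted p = 0.000456). In each of these 3 the libraries of a group lay close together, and leaving out any 1 library kept the call. MT-TY, the tRNA for tyrosine, had no count in hPSC IP-Ribo and 1.98 and 2.15 CPM in hPSC Ribo, at least 30.8-fold lower if 3 counts over the group are taken as the floor (adjusted p = 0.00594). A few tRNAs did not follow: MT-TK, for lysine, had 2.01 and 0.336 CPM in hPSC IP-Ribo and 0.808 and 1.39 CPM in hPSC Ribo, with overlapping groups (log2 fold change 0.07, adjusted p = 0.975). MT-TS2, a tRNA for serine, had 16.2 and 1.68 CPM in hPSC IP-Ribo and 3.77 and 1.95 CPM in hPSC Ribo (log2 fold change 1.64, adjusted p = 0.596), with 1 of the 2 IP-Ribo libraries far above the rest.

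**Figure D3:**
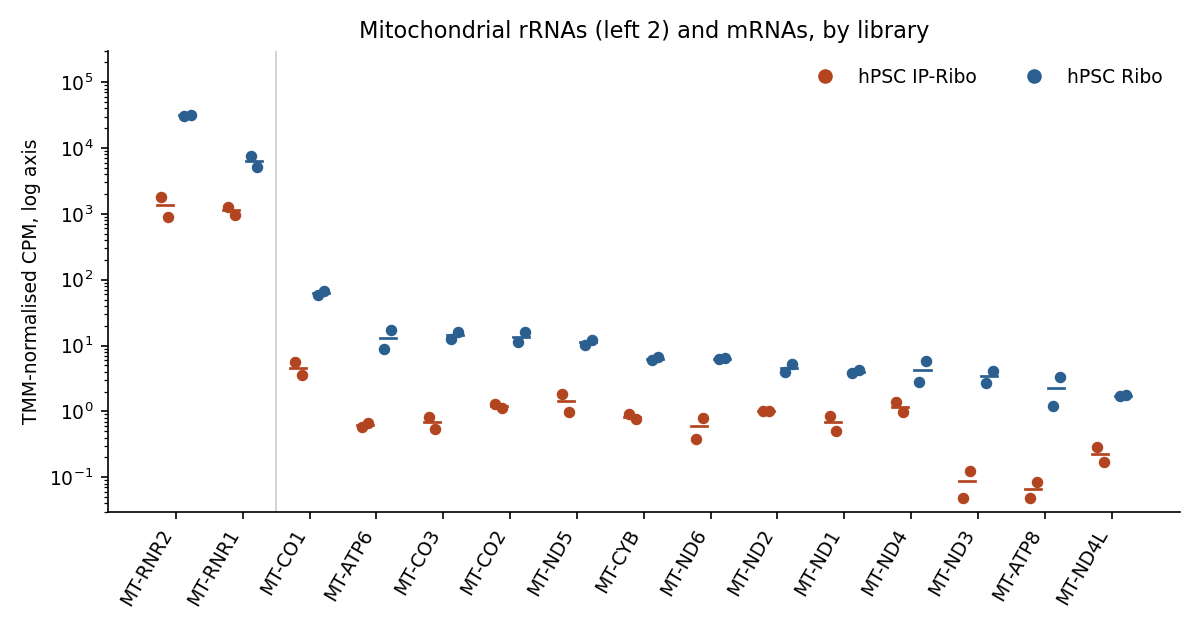
TMM-normalised CPM (log axis) of mitochondrially encoded genes in the 2 libraries each of hPSC IP-Ribo and hPSC Ribo; points are libraries and short lines are means. MT-RNR2 is at 1801 and 885 CPM in IP-Ribo and at 30539 and 32200 CPM in Ribo, and the 13 mRNAs lie below their Ribo values in both IP-Ribo libraries.

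Proteins that serve mitochondria but are encoded in the nucleus and made on cytosolic ribosomes lay near 0 on the log2 scale. Of 62 nuclear-encoded respiratory chain subunits 3 (4.84%) were lower and none was higher, with a median log2 fold change of 0.1. Of all protein-coding genes 1.97% were lower. The 3 were COX7B (-0.89, adjusted p = 0.0237), ATP5F1E (-0.64, adjusted p = 0.0467) and NDUFV2 (-2.14, adjusted p = 0.0455), subunits of complex IV, ATP synthase and complex I. None of these 3 calls held with every library left out in turn, since without hPSC Ribo replicate 2 their adjusted p-values were 0.118, 0.255 and 0.165. Of 78 mitochondrial ribosomal proteins MRPL54 was lower (-1.18, adjusted p = 0.00915) and MRPL9 was higher (0.74, adjusted p = 0.027, and 0.173 without hPSC Ribo replicate 2), with a median of 0.08.

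Small nucleolar RNAs guide chemical modification and processing of rRNA, and scaRNAs do the same for spliceosomal RNAs. Of 133 tested 56 were lower and none was higher in hPSC IP-Ribo, and the median log2 fold change was -2.7. Box C/D snoRNAs, which guide 2′-O-methylation, had 32 of 72 lower with a median of -2.77. Box H/ACA snoRNAs, which guide pseudouridylation, had 17 of 43 lower with a median of -2.98. For scaRNAs 7 of 17 were lower with a median of -2. The 3 kinds thus had like medians, which were not tested against each other. Without hPSC IP-Ribo replicate 1 the number lower was 39, and without hPSC Ribo replicate 2 it was 58.

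SNORD69, a box C/D snoRNA on chromosome 3 (52692736 to 52692812), had 4.83 and 3.95 CPM in hPSC IP-Ribo and 94.5 and 95.6 CPM in hPSC Ribo. Replicates nearly coincided, and it was 21.7-fold lower (log2 fold change -4.44, SE 0.18, adjusted p = 0.000237). SNORD104 had 40.9 and 49.8 CPM in hPSC IP-Ribo and 203 and 188 CPM in hPSC Ribo (log2 fold change -2.11, adjusted p = 0.00132). SNORD116-12, from the imprinted cluster on chromosome 15, had 7.32 and 5.55 CPM in hPSC IP-Ribo and 123 and 80.1 CPM in hPSC Ribo (log2 fold change -3.98, adjusted p = 0.00192). These 3 kept the call with any 1 library left out. SNORD89 had 0.574 and 0.378 CPM in hPSC IP-Ribo and 27.3 and 14.4 CPM in hPSC Ribo (log2 fold change -5.45, adjusted p = 0.00401), but it reached an adjusted p of 0.0726 without hPSC IP-Ribo replicate 2.

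The abundant snoRNAs were less far apart. SNORD3C, a copy of the U3 snoRNA that takes part in cleavage of the rRNA precursor, had 1331 and 2316 CPM in hPSC IP-Ribo and 4394 and 3824 CPM in hPSC Ribo (log2 fold change -1.17, SE 0.28, adjusted p = 0.0725). SNORD116-3 had 1667 and 1317 CPM in hPSC IP-Ribo and 4772 and 2841 CPM in hPSC Ribo (log2 fold change -1.35, adjusted p = 0.0521). In both the groups did not overlap, yet neither passed the threshold. U3 has several near-identical copies, so reads may be split among them, and 2 other copies had positive values that did not pass: SNORD3A at 1.54 and SNORD3B-1 at 3.18 on the log2 scale.

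Most snRNAs belong to the spliceosome, which removes introns in the nucleus, and the class as annotated also holds the feature named 7SK. Of 27 tested 11 were lower and none was higher, with a median log2 fold change of -1.89. RNU5E-1, a U5 snRNA, had 156 and 172 CPM in hPSC IP-Ribo and 1502 and 1815 CPM in hPSC Ribo (log2 fold change -3.34, SE 0.19, adjusted p = 0.000561). RNU5B-1 had 230 and 94.2 CPM in hPSC IP-Ribo and 2252 and 2115 CPM in hPSC Ribo (log2 fold change -3.75, SE 0.52, adjusted p = 0.0427). Both were lower by a wide gap, but the call of RNU5B-1 was lost without a Ribo library (adjusted p = 0.255 without replicate 1 and 0.288 without replicate 2), while RNU5E-1 kept its call. The U5 genes are near-identical copies, which makes the division of reads among them uncertain. RNVU1-27, a variant U1 gene, had 36.9 and 52.8 CPM in hPSC IP-Ribo and 147 and 174 CPM in hPSC Ribo (log2 fold change -1.84, adjusted p = 0.00561). RNU4ATAC, of the minor spliceosome, had 3.83 and 2.27 CPM in hPSC IP-Ribo and 19 and 38 CPM in hPSC Ribo (log2 fold change -3.23, adjusted p = 0.0393, and 0.153 without hPSC IP-Ribo replicate 2).

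RNU11, the minor-spliceosome U11 RNA, was the most abundant feature of its class and did not follow it. It had 12921 and 5280 CPM in hPSC IP-Ribo and 8655 and 13174 CPM in hPSC Ribo, and the groups overlapped (log2 fold change -0.26, SE 0.53, adjusted p = 0.826). The feature named 7SK, an RNA that holds back a transcription elongation factor, had 18.8 and 22.8 CPM in hPSC IP-Ribo and 65.8 and 66 CPM in hPSC Ribo (log2 fold change -1.67, adjusted p = 0.00277).

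A list of RNA components of ribonucleoproteins took in some of the snRNAs, snoRNAs and scaRNAs above beside Y, vault, signal recognition particle and telomerase RNAs, and 9 of its 21 tested members were lower, none was higher, and the median log2 fold change was -2.19. Of the 7 tested outside the classes above, 3 were lower: RNY4, VTRNA1-1 and VTRNA1-3. RNY4, a Y RNA bound by Ro60, had 4.88 and 2.06 CPM in hPSC IP-Ribo and 151 and 115 CPM in hPSC Ribo. It was 38.6-fold lower (log2 fold change -5.27, SE 0.50, adjusted p = 0.0191), and the adjusted p was 0.066 without hPSC Ribo replicate 1 and 0.0843 without replicate 2. RNY1, of the same family, had 57.5 and 104 CPM in hPSC IP-Ribo and 378 and 163 CPM in hPSC Ribo (log2 fold change -1.74, adjusted p = 0.234). VTRNA1-3, a vault RNA, had a log2 fold change of -3.72 (adjusted p = 0.0238), with an adjusted p of 0.239 without hPSC Ribo replicate 2. RN7SL2, an RNA of the signal recognition particle, which docks on ribosomes that make secreted proteins, had 11.2 and 5.3 CPM in hPSC IP-Ribo and 6.02 and 5.34 CPM in hPSC Ribo, with no separation (log2 fold change 0.54, adjusted p = 0.449).

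TERC, the telomerase RNA, had 3.59 and 4.16 CPM in hPSC IP-Ribo and 10.8 and 6.93 CPM in hPSC Ribo (log2 fold change -1.19, adjusted p = 0.0564). RN7SK and RPPH1 are listed at 0 in all 4 footprint libraries, although the RNA-seq libraries hold 11933 and 12239 CPM of RN7SK and 5526 and 5773 CPM of RPPH1. RMRP is listed at 0 in the footprint and RNA-seq libraries alike. Nothing can be compared for these 3 entries. RN7SK is an entry of the same RNA as the feature named 7SK above, which had counts in all 4 footprint libraries. How reads were divided between RN7SK and 7SK is not given in the sources used here. RNA5-8SN2, a 5.8S rRNA gene, was uneven between the Ribo libraries, with 1142 and 1773 CPM in hPSC IP-Ribo and 10270 and 844 CPM in hPSC Ribo (log2 fold change -1.93, SE 1.59, adjusted p = 0.593). Ribosomal RNA was depleted before sequencing, so its level is not a measure of ribosomes.

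Of the 55 microRNA genes tested, 53 had a RefSeq mature sequence, 23 were lower, none was higher, and 53 had a negative log2 fold change. The median was -3.48, and -3.4 with the 5 genes that had no count in a group at their bound. Without hPSC IP-Ribo replicate 2 the number lower was 14, and without hPSC Ribo replicate 1 it was 11. The 6 genes with the seed AAGUGCU together had 629 and 245 counts in hPSC IP-Ribo and 6061 and 4001 counts in hPSC Ribo. The 5 genes with the seed AAAGUGC together had 70 and 41 counts in hPSC IP-Ribo and 1270 and 845 counts in hPSC Ribo. Both seed groups were thus lower in each IP-Ribo library than in each Ribo library. Median log2 fold changes were -3 for AAGUGCU and -4.14 for AAAGUGC. MIR4426, which is in neither group and weighs heavily in the class share, was lower by less (log2 fold change -1.17, adjusted p = 0.0318).

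Of the 4 miR-302 genes, the 2 better-counted did not pass the test and the 2 others did. MIR302A had 342 and 124 counts in hPSC IP-Ribo and 4868 and 2930 counts in hPSC Ribo (log2 fold change -3.96, SE 0.85, adjusted p = 0.142). MIR302B had 221 and 93 counts in hPSC IP-Ribo and 826 and 715 counts in hPSC Ribo (log2 fold change -2.18, SE 0.55, adjusted p = 0.134). In both genes IP-Ribo replicate 1 lay above replicate 2 by a wide margin, although the groups did not overlap. MIR302C had 7 and 5 counts in hPSC IP-Ribo and 91 and 139 counts in hPSC Ribo (log2 fold change -4.13, SE 0.41, adjusted p = 0.00326), and it kept the call with any 1 library left out. MIR302D had 25 and 11 counts in hPSC IP-Ribo and 163 and 133 counts in hPSC Ribo (log2 fold change -2.94, adjusted p = 0.0191, and 0.0836 without hPSC Ribo replicate 1). MIR367, of the same cluster but with another seed (AUUGCAC), had 4 and 2 counts in hPSC IP-Ribo and 36 and 42 counts in hPSC Ribo (log2 fold change -3.55, adjusted p = 0.0173, and 0.123 without hPSC Ribo replicate 2). MIR372 passed at -3.07 (adjusted p = 0.0476, and 0.405 without hPSC Ribo replicate 1), and MIR373 did not at -1.6 (adjusted p = 0.172).

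In the AAAGUGC group 4 of 5 were lower. MIR20B had 11 and 10 counts in hPSC IP-Ribo and 348 and 286 counts in hPSC Ribo (log2 fold change -4.83, SE 0.31, adjusted p = 0.000791). MIR106B had 4 and 3 counts in hPSC IP-Ribo and 58 and 78 counts in hPSC Ribo (log2 fold change -4.14, adjusted p = 0.00468). These 2 kept the call with any 1 library left out. MIR93 had 35 and 25 counts in hPSC IP-Ribo and 575 and 317 counts in hPSC Ribo (log2 fold change -3.82, SE 0.47, adjusted p = 0.0183, and 0.151 without hPSC IP-Ribo replicate 2). MIR20A had 7 and 1 counts in hPSC IP-Ribo and 166 and 99 counts in hPSC Ribo (log2 fold change -4.93, adjusted p = 0.027, and 0.0851 without hPSC Ribo replicate 1). MIR17 did not pass, with 13 and 2 counts in hPSC IP-Ribo and 123 and 65 counts in hPSC Ribo (log2 fold change -3.54, SE 0.86, adjusted p = 0.0975).

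The genes that hold these microRNAs need not move with them. MIR93 and MIR106B lie inside MCM7, a subunit of the replicative helicase. MCM7 had 644 and 663 CPM in hPSC IP-Ribo and 433 and 464 CPM in hPSC Ribo (log2 fold change 0.54, SE 0.15, adjusted p = 0.0922), with both IP-Ribo libraries above both Ribo libraries. The noncoding hosts were lower. MIR302CHG had 91.6 and 99.7 CPM in hPSC IP-Ribo and 255 and 380 CPM in hPSC Ribo (log2 fold change -1.73, adjusted p = 0.00786). MIR17HG had 1.48 and 1.39 CPM in hPSC IP-Ribo and 14.6 and 16.4 CPM in hPSC Ribo (log2 fold change -3.43, adjusted p = 0.000793). Host and microRNA overlap in the annotation, so their reads may have been divided between them in a way the table does not show.

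**Figure D4:**
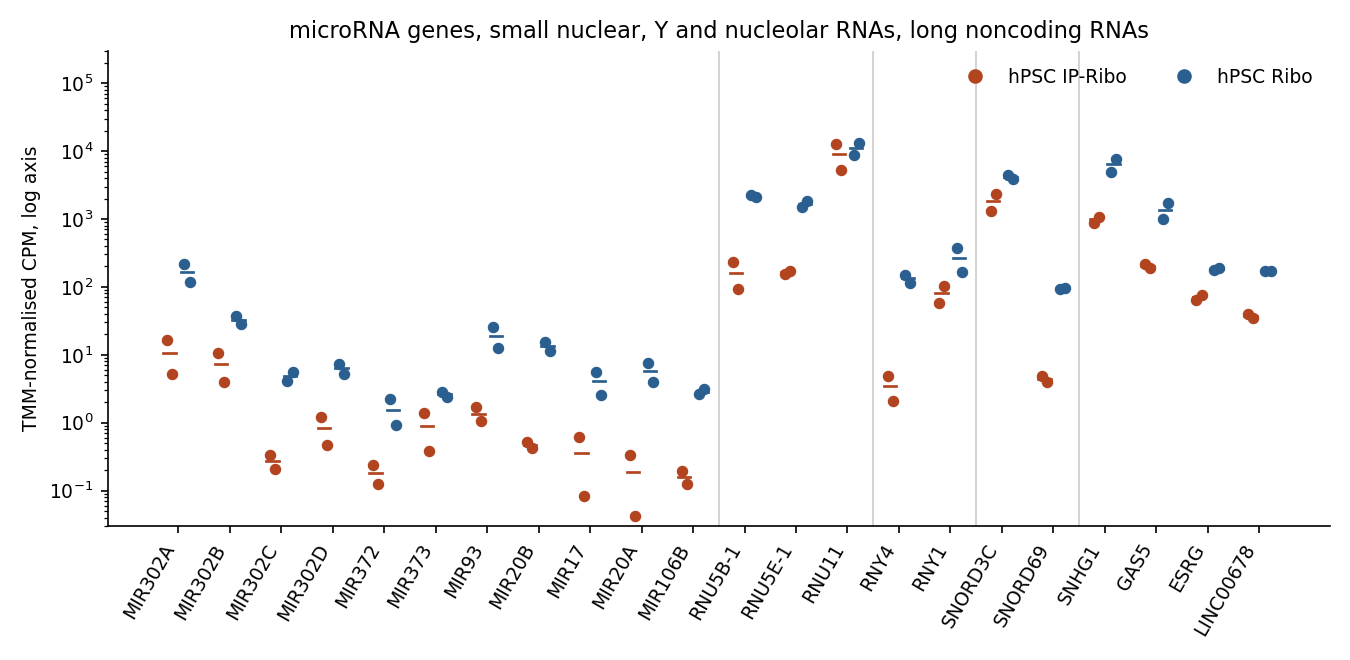
TMM-normalised CPM (log axis) of microRNA genes, snRNAs, Y RNAs, snoRNAs and long noncoding RNAs in the 2 libraries each of hPSC IP-Ribo and hPSC Ribo; points are libraries and short lines are means. The miR-302 and miR-17 family genes lie below their Ribo values, whereas RNU11 overlaps at 12921 and 5280 CPM in IP-Ribo and 8655 and 13174 CPM in Ribo.

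Long noncoding RNAs are transcripts without a long conserved reading frame, though ribosomes engage some of them. Of 509 tested 108 (21.2%) were lower and 4 were higher, with a median log2 fold change of -1.36 and an interquartile range from -1.95 to -0.66. The lower count fell to between 41 (without hPSC Ribo replicate 2) and 70 (without hPSC IP-Ribo replicate 1) when a library was left out, with 60 without each of the 2 others. The kinds of long noncoding RNA lay close together: the median was -1.31 for 124 LINC genes, -1.46 for 180 antisense genes and -1.33 for 75 divergent transcripts. Of these, 26, 39 and 9 genes were lower. Strand use in the counting is not given in the sources used here, so reads of antisense genes and of their partners cannot be told apart.

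Host genes of snoRNAs stood out in level. The spliced RNAs of noncoding hosts hold short reading frames and are known to be bound by ribosomes and degraded with translation, while the snoRNAs are cut from their introns. Of 27 tested, which include the protein-coding hosts TMEM107 and RACK1, 15 were lower and none was higher, with a median log2 fold change of -1.63. TMEM107 was 1 of the 15. RACK1, a protein of the small ribosomal subunit, was not, with 1138 and 1329 CPM in hPSC IP-Ribo and 1131 and 1197 CPM in hPSC Ribo (log2 fold change 0.08, adjusted p = 0.814). SNHG1 had 885 and 1087 CPM in hPSC IP-Ribo and 4991 and 7761 CPM in hPSC Ribo (log2 fold change -2.69, SE 0.26, adjusted p = 0.00365), and it kept the call with any 1 library left out. GAS5 had 214 and 188 CPM in hPSC IP-Ribo and 1001 and 1725 CPM in hPSC Ribo (log2 fold change -2.76, SE 0.29, adjusted p = 0.00667, and 0.0566 without hPSC IP-Ribo replicate 2). In RNA-seq SNHG1 stood at 123 and 137 CPM and GAS5 at 182 and 204 CPM. ZFAS1 had 6.36 and 12.8 CPM in hPSC IP-Ribo and 49.1 and 51.1 CPM in hPSC Ribo (log2 fold change -2.38, adjusted p = 0.0273, and 0.127 without hPSC Ribo replicate 2). SNHG15 did not pass, with 53.6 and 184 CPM in hPSC IP-Ribo and 1441 and 538 CPM in hPSC Ribo (log2 fold change -3.06, SE 1.04, adjusted p = 0.263), as its replicates differed widely in both groups. Reads of the embedded snoRNAs may be counted to these hosts; their part in the result was not tested.

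Among 15 long noncoding RNAs of pluripotent cells, 9 were lower, none was higher, and all 15 had a negative log2 fold change (median -1.46). ESRG, which pluripotent cells express at a high level, had 63.2 and 76.3 CPM in hPSC IP-Ribo and 178 and 192 CPM in hPSC Ribo (log2 fold change -1.41, adjusted p = 0.00524). In RNA-seq ESRG reached 5070 and 5888 CPM. LINC00678 had 39.9 and 35.3 CPM in hPSC IP-Ribo and 173 and 174 CPM in hPSC Ribo (log2 fold change -2.21, SE 0.15, adjusted p = 0.000902). Both were called with any 1 library left out. LINC-ROR, reported to bind microRNAs in stem cells, did not pass, with 1.2 and 2.52 CPM in hPSC IP-Ribo and 3.73 and 5.38 CPM in hPSC Ribo (log2 fold change -1.28, adjusted p = 0.126).

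Cytoplasmic and nuclear long noncoding RNAs were both low in footprints. NORAD, a cytoplasmic RNA that binds Pumilio proteins, had 2.11 and 1.72 CPM in hPSC IP-Ribo and 9.12 and 9.08 CPM in hPSC Ribo (log2 fold change -2.25, adjusted p = 0.00401), against 623 and 609 CPM in RNA-seq. MALAT1, a nuclear RNA of splicing speckles, had 10 and 4.2 CPM in hPSC IP-Ribo and 38.2 and 36.3 CPM in hPSC Ribo (log2 fold change -2.39, SE 0.44, adjusted p = 0.0659). The list of nuclear long noncoding RNAs also holds NORAD, which was the 1 lower member of its 10 tested, and the median was -1.15. Of the 4 long noncoding RNAs that were higher, LINC01905 had 60.7 and 37.4 CPM in hPSC IP-Ribo and 10.5 and 11 CPM in hPSC Ribo (log2 fold change 2.19, adjusted p = 0.0075), with any 1 library left out too. The other 3 were GASK1B-AS1 (2.69), ZNF436-AS1 (2.27) and ZNF286A-TBC1D26 (0.87), with adjusted p-values of 0.0484, 0.0449 and 0.0393. They lost the call without hPSC IP-Ribo replicate 1, at 0.159, 0.146 and 0.0882, and ZNF286A-TBC1D26 is named as a readthrough of coding genes.

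The tagged protein itself was looked at next. RPL22 had 1524 and 1448 CPM in hPSC IP-Ribo and 2350 and 2089 CPM in hPSC Ribo (log2 fold change -0.58, SE 0.16, adjusted p = 0.0908), so it did not pass although the groups did not overlap. Its paralog RPL22L1 had 59 and 60.3 CPM in hPSC IP-Ribo and 100 and 141 CPM in hPSC Ribo (log2 fold change -1.02, adjusted p = 0.0287, and 0.139 without hPSC Ribo replicate 2). How reads of the tagged gene and its native copy were assigned is not given in the sources used here.

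Ribosomal protein mRNAs, among the most heavily translated of the cell, split in direction. Of 50 large-subunit genes 5 were lower and 2 were higher with a median log2 fold change of -0.02, and of 33 small-subunit genes 2 were lower and none was higher with a median of -0.07. Both medians changed sign with the scaling or the libraries used, from -0.05 to 0.05 for the large subunit and from -0.16 to 0.1 for the small subunit. Against a background of 1.97% lower among protein-coding genes, 10% of the large-subunit genes and 6.06% of the small-subunit genes were lower.

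None of the ribosomal protein calls named here held with every library left out in turn. RPL41 had 44.8 and 42.7 CPM in hPSC IP-Ribo and 111 and 179 CPM in hPSC Ribo (log2 fold change -1.73, adjusted p = 0.016, and 0.11 without hPSC IP-Ribo replicate 2). RPS27 had 366 and 347 CPM in hPSC IP-Ribo and 736 and 707 CPM in hPSC Ribo (log2 fold change -1.02, adjusted p = 0.0139, and 0.0628 without hPSC IP-Ribo replicate 2). RPL37 (-0.89) and RPL38 (-0.76) were also lower, and neither was called with any library left out. RPL36A (1.78) and RPL21 (1.1) were higher, with adjusted p-values of 0.0173 and 0.0233, and of 0.0715 and 0.143 without hPSC Ribo replicate 1. Genes of this family have many processed pseudogenes, so their counts are uncertain where reads match several copies. The annotated span of RPL37 holds the snoRNA gene SNORD72, whose part in the counts of RPL37 was not tested. RPL7 had 5826 and 5405 CPM in hPSC IP-Ribo and 4368 and 4502 CPM in hPSC Ribo and did not pass (log2 fold change 0.34, adjusted p = 0.26).

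Translation factors were mostly near no change. Of 35 initiation factors 4 (11.4%) were lower, against 1.97% of all protein-coding genes, and none was higher (median 0.16). EIF4A2, an RNA helicase of initiation, had 311 and 266 CPM in hPSC IP-Ribo and 675 and 694 CPM in hPSC Ribo (log2 fold change -1.25, adjusted p = 0.00848), and leaving out a library did not end the call. Its paralog EIF4A1 had 4090 and 4296 CPM in hPSC IP-Ribo and 4360 and 4639 CPM in hPSC Ribo (log2 fold change -0.1, adjusted p = 0.759). EIF5, EIF1 and EIF1B, which take part in start codon choice, had log2 fold changes of -1.19, -0.87 and -0.85 with adjusted p-values of 0.027, 0.0476 and 0.0437. Without hPSC Ribo replicate 2 those were 0.106, 0.244 and 0.238. The annotated spans of EIF4A2, EIF4A1 and EIF5 hold snoRNA genes, whose part in these counts was not tested. None of 12 elongation and termination factors (median 0.27) and none of 20 aminoacyl-tRNA synthetases (median 0.13) passed. EEF1A1, the factor that brings tRNA to the ribosome, had 35042 and 29790 CPM in hPSC IP-Ribo and 19158 and 26180 CPM in hPSC Ribo (log2 fold change 0.52, adjusted p = 0.204).

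Other cytosolic housekeeping lists held few or no calls. None of 16 glycolytic enzymes (median 0.27), 24 chaperones (0.2), 31 proteasome subunits (0.25) and 22 DNA replication and cell cycle genes (0.16) passed. Of 29 cytoskeleton genes 3 were lower and none was higher, with a median of 0.15. Against 1.97% of all protein-coding genes, 10.3% of cytoskeleton genes, 8.33% of ribosome biogenesis genes and 7.14% of replication histones were lower. HSPA8, the constitutive HSP70 chaperone, had 8768 and 8628 CPM in hPSC IP-Ribo and 7969 and 8618 CPM in hPSC Ribo (log2 fold change 0.07, adjusted p = 0.845). Of 24 ribosome biogenesis genes GAR1 (-0.98) and NOP10 (-1.02), both proteins of H/ACA particles, were lower and MYBBP1A (0.75) was higher, and each of the 3 lost its call without at least 1 library (highest adjusted p-values 0.0732, 0.188 and 0.216). Of 28 replication histones H2BC21 (-1.53, adjusted p = 0.0184) and H2AC6 (-1.2, adjusted p = 0.0157) were lower, with 0.0626 without hPSC Ribo replicate 1 for H2BC21 and 0.0548 without hPSC IP-Ribo replicate 1 or without hPSC Ribo replicate 2 for H2AC6.

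Proteins made at the endoplasmic reticulum (ER) were looked at because their ribosomes sit on a membrane. Of 38 genes of the ER translocon, signal recognition and ER folding 1 was lower (SPCS2, -1.09), with a median of -0.04. Of 31 genes of secreted and matrix proteins 1 was lower and 1 was higher (SPARC, 0.75), with a median of -0.07. Of 38 genes of membrane receptors, transporters and adhesion proteins 1 was lower (ATP1B3, -0.83), 35 had a negative log2 fold change and the median was -0.36. Over all settings tried that median ran from -0.51 to -0.21, while the medians of the other 2 lists changed sign. SPCS2, SPARC and ATP1B3 each lost the call when 1 library was left out, with adjusted p-values up to 0.109, 0.225 and 0.19. CD24, a surface protein of stem cells anchored by a lipid, did not pass (-0.73, adjusted p = 0.0806).

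Few genes of the pluripotent state passed the test. Of 24 pluripotency genes 1 was lower and none was higher, with a median of -0.05 that ran from -0.08 to 0.09 over the settings. POU5F1 had 1285 and 1680 CPM in hPSC IP-Ribo and 1556 and 1211 CPM in hPSC Ribo, overlapping (log2 fold change 0.1, SE 0.21, adjusted p = 0.824). SOX2 had 50.7 and 58.5 CPM in hPSC IP-Ribo and 66.9 and 63.8 CPM in hPSC Ribo (log2 fold change -0.26, adjusted p = 0.347). NANOG had 65 and 110 CPM in hPSC IP-Ribo and 166 and 168 CPM in hPSC Ribo (log2 fold change -0.93, SE 0.26, adjusted p = 0.102). TDGF1, a co-receptor of Nodal, was the 1 that passed (log2 fold change -1.01, adjusted p = 0.027, and 0.142 without hPSC Ribo replicate 2). The lists of other lineages held under 10 tested genes each, with medians of 0.42 for 9 DE genes, 0.14 for 5 mesoderm and ectoderm genes and 0.65 for 4 genes of mesenchyme, trophoblast and other cells. In the last of these lists 1 gene passed, PECAM1, which was higher (log2 fold change 1.96, adjusted p = 0.0222). With a library left out its log2 fold change ran from 1.67 to 2.33, and the call was lost each time. In RNA-seq PECAM1 stood at 0.263 and 0.456 CPM. No gene of the DE list or of the mesoderm and ectoderm list passed. Among stress mRNAs with upstream reading frames 2 of 18 (11.1%) were lower, against 1.97% of all protein-coding genes, with a median of -0.36. None of 16 selenoproteins passed (median -0.25).

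**Figure D5:**
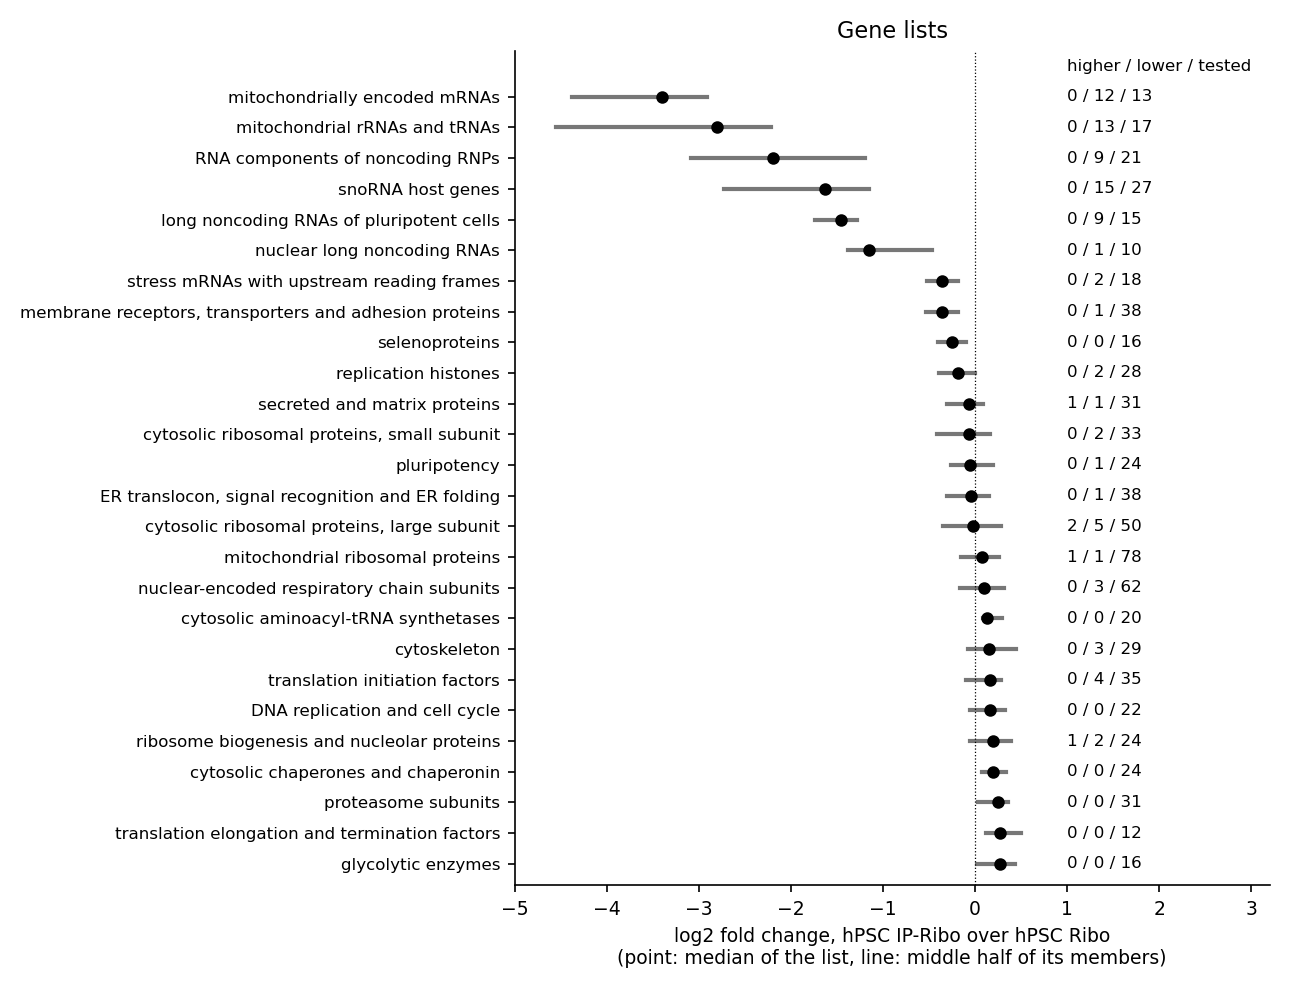
Median log2 fold change of hPSC IP-Ribo over hPSC Ribo in 26 gene lists with at least 10 tested members (points) with the interquartile range of its members (lines), and the numbers higher, lower and tested. Mitochondrial and noncoding lists lie between medians of -3.4 and -1.15, and the protein-coding lists drawn between -0.36 and 0.27.

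Several protein-coding genes were lower by more than the lists above. CTC1, a telomere maintenance protein (chromosome 17, 8224815 to 8248056), had 69.3 and 39.1 CPM in hPSC IP-Ribo and 830 and 1071 CPM in hPSC Ribo (log2 fold change -4.13, SE 0.35, adjusted p = 0.00464). In RNA-seq CTC1 stood at 24.8 and 24.1 CPM. The annotated span of CTC1 holds the tRNA genes TRT-AGT1-2, TRS-AGA2-6 and TRI-AAT4-1. WDR74, a ribosome assembly factor (chromosome 11, 62832905 to 62841809), had 770 and 857 CPM in hPSC IP-Ribo and 5974 and 5343 CPM in hPSC Ribo (log2 fold change -2.8, SE 0.18, adjusted p = 0.000791), and 57.6 and 61.8 CPM in RNA-seq. Its span holds the U2 snRNA gene RNU2-2. TMEM107, a cilium protein whose span holds the U8 snoRNA gene SNORD118, had 10.2 and 5.67 CPM in hPSC IP-Ribo and 52.1 and 58.2 CPM in hPSC Ribo (log2 fold change -2.8, adjusted p = 0.00797). These 3 genes were each called with any 1 library left out.

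Embedded small RNA genes were counted over all tested protein-coding genes. Of 1292 that contain a small noncoding RNA gene 21 (1.63%) were lower, and of 10898 that contain none 219 (2.01%) were lower, with medians of 0.07 and 0.01. Among 444 that contain a snoRNA 11 (2.48%) were lower, among 818 that contain a microRNA 8 (0.978%), and among 26 that contain an snRNA 2 (7.69%). Most tested protein-coding genes hold no annotated small RNA gene, and the same is true of the lower ones. In those that hold one, its part in the result was not tested. Pseudogenes of small RNAs were not counted as small RNA genes here. RPL21 is a case where host and guest differ in sign: SNORD102 within it had 39.5 and 22.4 CPM in hPSC IP-Ribo and 208 and 324 CPM in hPSC Ribo (log2 fold change -3.1, adjusted p = 0.0259), whereas RPL21 had 74.5 and 53.8 CPM in hPSC IP-Ribo and 28.2 and 31.8 CPM in hPSC Ribo.

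Other lower protein-coding genes hold no annotated small RNA gene of the kinds counted. TMC5, a membrane protein of the transmembrane channel-like family, had 918 and 739 CPM in hPSC IP-Ribo and 7338 and 10347 CPM in hPSC Ribo (log2 fold change -3.42, adjusted p = 0.000905), and RNA-seq held 3.55 and 3.86 CPM. COA1, a complex IV assembly factor, had 32.2 and 35.7 CPM in hPSC IP-Ribo and 187 and 215 CPM in hPSC Ribo (log2 fold change -2.57, adjusted p = 0.000791). SETSIP, a near-identical copy of SET whose counts are uncertain for that reason, had a log2 fold change of -2.09 (adjusted p = 0.00248). FTL, the ferritin light chain, had 58 and 38.6 CPM in hPSC IP-Ribo and 175 and 227 CPM in hPSC Ribo (log2 fold change -2.06, adjusted p = 0.00857). GNG10, a G protein gamma subunit, had 23.8 and 33 CPM in hPSC IP-Ribo and 87.4 and 80.1 CPM in hPSC Ribo (log2 fold change -1.56, adjusted p = 0.0065). All 5 kept the call with any 1 library left out.

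Some genes of very short proteins were lower as well, of which TMA7, NBDY and APELA were picked out after their values were seen. TMSB10, thymosin beta-10, which binds actin monomers, had 114 and 137 CPM in hPSC IP-Ribo and 360 and 376 CPM in hPSC Ribo (log2 fold change -1.55, SE 0.17, adjusted p = 0.00423). TMA7, a translation machinery associated protein, had 253 and 228 CPM in hPSC IP-Ribo and 589 and 626 CPM in hPSC Ribo (log2 fold change -1.34, adjusted p = 0.00594). Both were called with any 1 library left out. TMSB4X had 957 and 733 CPM in hPSC IP-Ribo and 1695 and 2018 CPM in hPSC Ribo (log2 fold change -1.14, adjusted p = 0.0231, and 0.0966 without hPSC Ribo replicate 2). NBDY, a microprotein of mRNA decapping, had 3.01 and 4.58 CPM in hPSC IP-Ribo and 10.9 and 11.4 CPM in hPSC Ribo (log2 fold change -1.54, adjusted p = 0.0186, and 0.0893 without hPSC Ribo replicate 2). APELA, a peptide hormone of stem cells, had 6.7 and 7.99 CPM in hPSC IP-Ribo and 15.8 and 23.3 CPM in hPSC Ribo (log2 fold change -1.41, adjusted p = 0.0208, and 0.106 without hPSC Ribo replicate 2). No relation to protein length was computed.

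Higher protein-coding genes were fewer than lower ones with edgeR (63 against 240), while DESeq2 called 359 higher and 363 lower. Those named here changed less than CTC1, WDR74 and TMEM107 above. DYNLT1, a light chain of the dynein motor, had 216 and 187 CPM in hPSC IP-Ribo and 73 and 80.1 CPM in hPSC Ribo (log2 fold change 1.4, SE 0.16, adjusted p = 0.00481), and it kept the call with any 1 library left out. POLR2H, a subunit of RNA polymerases, had 274 and 349 CPM in hPSC IP-Ribo and 126 and 140 CPM in hPSC Ribo (log2 fold change 1.22, adjusted p = 0.0123, and 0.0638 without hPSC Ribo replicate 1). GINS2, of the replicative helicase complex, had 232 and 157 CPM in hPSC IP-Ribo and 74.4 and 69.9 CPM in hPSC Ribo (log2 fold change 1.43, adjusted p = 0.0138, and 0.0754 without hPSC Ribo replicate 2). In all 3 the groups were clear of each other. SNRPD2, a core protein of spliceosomal particles, had 542 and 598 CPM in hPSC IP-Ribo and 301 and 263 CPM in hPSC Ribo (log2 fold change 1.01, adjusted p = 0.0175, and 0.103 without hPSC Ribo replicate 2). INHBA, the activin A subunit, had 98.8 and 58.6 CPM in hPSC IP-Ribo and 26.9 and 29.7 CPM in hPSC Ribo (log2 fold change 1.47, adjusted p = 0.0384, and 0.198 without hPSC Ribo replicate 1), with 0.827 and 1.32 CPM in RNA-seq.

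Pseudogenes moved in both directions, some by large factors, with 96 lower and 50 higher of 976 tested and a median of 0.06. The lower count was 63 without hPSC Ribo replicate 1. They are near-identical copies of other genes, and how reads were divided among copies is not given in the sources used here, so the counts are uncertain. RPL22P2, a pseudogene of the tagged RPL22, had 0.144 and 0 CPM in hPSC IP-Ribo and 256 and 738 CPM in hPSC Ribo (adjusted p = 0.0478, and 0.206 without hPSC IP-Ribo replicate 2). DYNLL1P1 had no count in hPSC IP-Ribo and 94.3 and 165 CPM in hPSC Ribo, at least 1963-fold lower with the same floor of 3 counts (adjusted p = 0.0158). TUBBP1 went the other way, with 518 and 479 CPM in hPSC IP-Ribo and 11.6 and 9.44 CPM in hPSC Ribo (log2 fold change 5.57, adjusted p = 0.000237). TUBB, its parent and a beta tubulin, had a log2 fold change of 0.12 (adjusted p = 0.728). RNPS1P1 had 22.5 and 22.5 CPM in hPSC IP-Ribo and no count in hPSC Ribo, at least 356-fold higher (adjusted p = 0.000456). Pseudogenes of snRNAs followed their class, with 30 of 74 lower and none higher (median -1.8), and RNU5E-4P had 76.5 and 81.8 CPM in hPSC IP-Ribo and 854 and 1402 CPM in hPSC Ribo (log2 fold change -3.83, adjusted p = 0.00148).

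The same comparison in DE stood beside that in hPSC. The DE libraries were less even: protein-coding genes held 84.28% and 88.72% in DE IP-Ribo and 40.57% and 76.15% in DE Ribo, long noncoding RNAs held 18.45% in DE Ribo replicate 1 against 2.336% in replicate 2, and DE IP-Ribo replicate 1 held 6.61 M counts. In DE 114 of 15035 tested genes (0.758%) were past the threshold, 104 of them lower (0.692%) and 10 higher (0.0665%). Of the 704 genes called in hPSC that had a DE value, 667 had the same sign there. The share with the same sign among all genes tested in both stages is not given here, so this count has no background. Medians in DE were -2.88 for mitochondrially encoded mRNAs, -4.76 for mitochondrial rRNAs and tRNAs, -2.72 for snoRNAs and scaRNAs, -3 for snRNAs, -5.35 for microRNA genes and -0.88 for long noncoding RNAs, against 0.01 for protein-coding genes. In hPSC these medians were -3.4, -2.8, -2.7, -1.89, -3.48 and -1.36, against 0.02.

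Single genes repeated in part. Of the genes tested in both stages, 90 of 13403 were past the threshold and lower in DE. These took in 29 of 52 microRNA genes, but 3 of 13 mitochondrially encoded mRNAs. They also took in 5 of 375 long noncoding RNAs and 7 of 11588 protein-coding genes. MT-CO1 had a log2 fold change of -3.77 in hPSC and of -3.74 in DE (adjusted p = 0.00626 in DE), MT-RNR2 -4.55 in hPSC and -4.23 in DE (adjusted p = 0.0127), and SNORD69 -4.44 in hPSC and -2.37 in DE (adjusted p = 0.0218). Of the microRNA genes above that did not pass in hPSC, 3 did so in DE and MIR373 did not (adjusted p = 0.339): MIR302A was at -6.63 (adjusted p = 0.00626), MIR302B at -6.13 (adjusted p = 0.00317) and MIR17 at -7.39 (adjusted p = 0.00317). RNY4 was at -7.49 in DE (adjusted p = 0.0163). Other genes called in hPSC did not pass in DE. MT-CYB was at -2.18 there (adjusted p = 0.115), ESRG at -0.04 (adjusted p = 0.959) and EIF1 at 0.44 (adjusted p = 0.585). The difference between hPSC and DE was tested as the interaction of library type and stage in a fit of 8 libraries. Of 16679 genes tested 2 (0.012%) passed, 663 did so at an unadjusted p of 0.05, and DESeq2 called 62. Both were pseudogenes, WDR82P2 and EZRP1. No named class of RNA held a gene with a called difference apart from pseudogenes, so a call in 1 stage and not in the other is not shown to be a difference between the stages.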

How the data were processed

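The values are estimated counts per gene, which need not be whole, in 1 table of 18 libraries as deposited by the authors. Per the submitters' processing notes, Salmon, DESeq2, UMI-tools, cutadapt and Bowtie were named, without roles or versions, and the build was GRCh38. The settings that assigned reads to genes are not given in the sources used here. Per the labels, footprint libraries were depleted of rRNA with riboPOOLs and RNA-seq libraries with RNase H. In the 4 hPSC footprint libraries 21.8% to 25.8% of the values are not whole numbers, and all values were rounded before the count tests.

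Of the identifiers 57030 (98.7%) were found in the gene name table, 41495 had a symbol, and 40089 had a RefSeq gene type by symbol. These types gave the RNA classes; microRNA genes and nuclear-encoded rRNAs were kept apart from other small RNAs. The gene test was edgeR 4.0.16 (R 4.3.3) with filterByExpr, TMM, a robust quasi-likelihood F test and Benjamini-Hochberg adjustment over all tested genes, at an adjusted p under 0.05. The hPSC fit held 4 libraries. The DE values come from a like fit of 4 DE libraries, and the difference between stages from a fit of 8. Standard errors come from these fits. CPM are TMM-normalised within a fit; RNA-seq CPM use library totals. A gene with no count in a group is given as a bound against 3 counts over the group. The test was checked on simulated data. RefSeq sequences and coordinates are those of GRCh38.p14.

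Members and the 29 gene lists were chosen with earlier results of these data known. For protein-coding genes the rule for naming took, in each direction, the 10 called genes with the largest change whose groups did not overlap and whose log2 CPM averaged 5 or more. For other classes it took 4 per direction at an average of 3 or more, and from each list at most 4 called members and 2 others, besides a fixed set. The microRNA genes other than MIR93 and MIR4426, TMA7, NBDY, APELA, TUBBP1, RNU5E-4P, 7SK, TERC, RN7SL2, RNY1, RNA5-8SN2, MT-TK, SNHG1, ESRG, ZFAS1, GASK1B-AS1, ZNF436-AS1, RPL37, RPL38, SNORD3A, SNORD3B-1, SNORD3C, SNORD102, SNORD104, SNORD116-3 and SNORD116-12 were named after their values were seen. Some items are not reported here. Of the lists, RNY5, RNU6-1, PAX6-AS1, H3C2 and H3C3 were not matched. Groupings by protein length and hydrophobic stretches were not run, since no protein table was used here.

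Alternatives were RLE size factors, no filter, a filter of 1 CPM and 10 counts in 2 libraries, protein-coding genes alone, DESeq2 1.42.0, the replicate number as a block, each library left out in turn, all 8 footprint libraries, and glmTreat (changes beyond a log2 value of 1). Replicate numbers were not taken as pairs. Python 3.11.15 with pandas 2.3.3 and matplotlib 3.10.9 made the tables and figures.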

Additional observations from a re-analysis of the deposited data

Results flagged for a closer look

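A test of the difference between hPSC and DE was past the threshold for 2 pseudogenes. EZRP1 had 13.3 and 22.8 CPM in hPSC IP-Ribo and 0.227 and 0.158 CPM in hPSC Ribo, and it had 0.890 and 0.787 CPM in DE IP-Ribo and 1.17 and 1.39 CPM in DE Ribo. The hPSC minus DE difference in its log2 fold change was 7.16 (SE 0.55, adjusted p = 0.0249, edgeR). EZRP1 was thus higher in IP-Ribo in hPSC, while the DE groups lay close together.

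WDR82P2 had 24.9 and 22.6 CPM in hPSC IP-Ribo and 3.94 and 4.02 CPM in hPSC Ribo, and it had 9.79 and 9.52 CPM in DE IP-Ribo and no count in DE Ribo. The hPSC minus DE difference in its log2 fold change was -8.12 (SE 0.59, adjusted p = 0.0278). Because DE Ribo had no count, the fitted change in DE and the difference depend on the prior count and are not a measure of size. Both genes are near-identical copies of EZR and WDR82, so their counts are uncertain. With the replicate block neither was called.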

How the results depend on the processing

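The hPSC comparison called 803 genes (144 higher, 659 lower), and no named gene past the threshold changed direction under the alternatives run. Counts within 1.5 times of these were 786 (157 higher, 629 lower) with RLE size factors and 813 (149, 664) with the stricter filter. A replicate block gave 979 (189, 790), and 783 (178, 605) with the numbers of hPSC IP-Ribo exchanged, a pairing added after the data were seen. Replicate differences of the 2 hPSC groups correlated at -0.16, so equal numbers were not taken as pairs. Counts moved to 2338 (896 higher, 1442 lower) without a filter, 1399 (488, 911) with DESeq2, 192 (15, 177) with all 8 footprint libraries, and 216 (26, 190) with glmTreat. A fit of protein-coding genes alone called 548 (138 higher, 410 lower). The like numbers in the main fit were 63 higher and 240 lower protein-coding genes, so more of them were called when fitted alone. Leaving out a library gave 434 to 617 genes, 85 to 136 higher and 349 to 481 lower; the lone library of a group is then assumed to vary like the other group. Of 109 named genes past the threshold, 101 were past it with the replicate block, 38 with 8 libraries, 53 with glmTreat and 68 to 78 with a library left out.

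The difference between hPSC and DE called 2 genes, 214 without a filter, 62 with DESeq2, none (0) with protein-coding genes alone, 0 with the replicate block and 0 to 11 with a library left out (11 without DE Ribo replicate 2). Without mitochondrial genes in the denominator, the protein-coding share was 90.8% in hPSC IP-Ribo and 84.3% in hPSC Ribo, against 90.6% and 81.2% with them. The causes of these moves were not tested. With 2 libraries a group the spread is poorly known, and genes under about 1 CPM rest on few counts.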
